A study of Mus musculus with 24 samples.

Results

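Described here are 35 genes for lysosomal hydrolases, their cofactors and membrane proteins of the organelle in mouse liver. They were taken by symbol from the 24421 entries of the deposited count table, and all 35 were found. They comprise 9 cathepsins and other proteases, 10 glycosidases, 6 lipid and sulfate hydrolases, 4 soluble cofactors and 6 membrane proteins. The lysosome degrades macromolecules with soluble acid hydrolases that reach it through the secretory and endocytic routes. Its membrane is lined by heavily glycosylated proteins, and some of its enzymes need small activator proteins to work on lipids. In the liver it breaks down endocytosed lipoproteins, glycogen and autophagic cargo, and resident macrophages are rich in it.

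The libraries were made from ribosome-depleted total RNA of livers of male C57Bl/6J mice, fed a Western diet (WD, 42% fat) or a control diet (CD, 13% fat). Mice inhaled vinyl chloride (VC, an industrial monomer that the liver oxidises) at 0.85 ± 0.1 ppm, or clean air, for 12 weeks, 6 hours daily and 5 days weekly, and were fasted for 4 hours before tissue was taken. Livers of the m12 groups were taken 9 months after the exposure ended, and those of the w12 groups directly after it. The 8 groups were m12_WD+VC, m12_WD, m12_CD+VC, m12_CD, w12_WD+VC, w12_WD, w12_CD+VC and w12_CD, with 3 libraries each, and groups without +VC breathed air. Nothing in the labels ties each library to a separate animal, so the p-values below measure only the spread between these samples, which may be technical. The design asks what diet and a past exposure to VC, alone and together, do to liver RNA soon after and long after the exposure.

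Few counts were assigned to the entries in each library, and how many reads lay behind them was not examined. The w12_WD 3 library held 607 counts, of which 4 fell on the 35 genes, all on Ctsa. It stayed in the fitted model, but levels of w12_WD are given over the other 2 libraries. The remaining 23 libraries held 126160 to 962493 counts, so that 3 counts, the upper limit that a count of 0 allows, stood for 3.12 to 23.8 CPM (counts scaled by the library total). Such limits and the intervals below cover counting error only. The summed level of 12 hepatocyte markers was 3441 to 37865 CPM in the 23 libraries, with Ass1 at 0 counts in every group. Entries whose exons overlap an exon of a gene on the other strand held 78.48% of all counts, and reads of such a pair cannot be told apart without strand. The share of counts on the 18198 entries with no such overlap was 20.7% ± 2.42 in m12_WD+VC, 25.9% ± 3.89 in m12_WD, 26.6% ± 4.63 in m12_CD+VC and 15.6% ± 3.56 in m12_CD (SD, n = 3), and it averaged 15.2% to 17.2% in the w12 groups. Of the 35 genes, 11 had an overlap and 24 had none. Lack of an overlap does not clear a gene of doubt, because the strand setting of the counting was not given.

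The start regions of these genes are shown first, because lysosomal genes are known as targets of the factors TFEB and TFE3, which bind the E-box CACGTG. In RefSeq windows of GRCm38.p6, from 250 bases before to 50 after the start, 31 of the 35 genes had a window. CACGTG, which reads the same on both strands, was present for 9 of these 31 genes (29%), against 8.09% of the 27025 genes with a window. The longer form TCACGTGA, which contains it, was present for 3 of the 31 (9.68%) against 1.12% of genes. The stretches below are parts of the windows of members whose levels are described next, with CACGTG in capitals. The Lamp1 stretch shows 4 copies within 90 bases, those of Ctsd, Ctsa, Gaa and Ctsl show 1 each, and that of Psap shows none. The whole windows of Ctsd and Ctsa shown here in part hold 2 copies each, and for the others the stretch shows every copy in the window. Ctsa and Psap have 2 windows each. The Ctsa window that is not shown holds no CACGTG, and neither Psap window does.
Lamp1, chr8:13159071-13159160, plus strand: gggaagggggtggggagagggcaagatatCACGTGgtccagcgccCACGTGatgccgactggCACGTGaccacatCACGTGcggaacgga
Ctsd, chr7:142387888-142387957, minus strand: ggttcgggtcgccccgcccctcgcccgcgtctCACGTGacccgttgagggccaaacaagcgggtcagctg
Ctsa, chr2:164833713-164833772, plus strand: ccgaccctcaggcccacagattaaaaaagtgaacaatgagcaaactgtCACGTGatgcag
Gaa, chr11:119267793-119267862, plus strand: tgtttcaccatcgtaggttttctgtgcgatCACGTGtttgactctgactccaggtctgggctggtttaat
Ctsl, chr13:64370701-64370770, minus strand: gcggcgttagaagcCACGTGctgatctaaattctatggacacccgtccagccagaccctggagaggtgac
Psap, chr10:60277538-60277627, plus strand: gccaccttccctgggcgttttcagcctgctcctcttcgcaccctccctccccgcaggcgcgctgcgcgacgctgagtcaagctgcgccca
A match of letters is not a bound site, and Arsa, Ctsf, Gla and Glb1 also held the motif.

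The 35 genes held 51834 counts in all, of which 38504 (74.3%) fell on Ctsa and 13330 on the other 34. Per kilobase of exon, the mean level over the 8 groups was 840 CPM for Ctsa, the carboxypeptidase that stabilises Neu1 and Glb1 in the lysosome. Ctsz, a carboxypeptidase, followed at 77.7 and the membrane glycoprotein Lamp1 at 56.6 CPM per kilobase. The cysteine protease Ctsl stood at 31.9, the aspartic protease Ctsd at 30.4, Psap at 29.4 and Ppt1 at 27.4 CPM per kilobase, close together. Of these leading genes Ctsa, Ctsz, Lamp1, Ctsl and Ppt1 had an opposite-strand overlap, while Ctsd and Psap had none. How much of the overlapped entries comes from the named gene was not tested. At the low end, Manba (beta-mannosidase), Gla (alpha-galactosidase) and Glb1 (beta-galactosidase) reached 0.405, 0.32 and 0.246 CPM per kilobase. Expression was sufficient to test 23 genes, 13 without and 10 with an overlap. The other 12, namely Ctsc, Ctsf, Tpp1, Gla, Glb1, Manba, Asah1, Arsb, Smpd1, Gm2a, Cd63 and Laptm4a, held 6 to 93 counts each over all libraries.

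Among the 12-month livers, the 34 genes other than Ctsa were together highest on Western diet without VC and lowest on control diet without VC. Their summed level was 1907 ± 228 CPM in m12_WD+VC, 2554 ± 363 in m12_WD, 1911 ± 355 in m12_CD+VC and 940 ± 162 in m12_CD (SD, n = 3). At 12 weeks it was 1123 ± 106 in w12_WD+VC, 969 ± 243 in w12_WD (n = 2), 1083 ± 172 in w12_CD+VC and 1114 ± 434 in w12_CD. Every m12_WD+VC, m12_WD and m12_CD+VC library lay above every m12_CD library, while the 4 w12 groups overlapped each other. The 24 genes without an overlap were at 12 months likewise highest in m12_WD and lowest in m12_CD, at 638 ± 136, 964 ± 168 and 765 ± 250 CPM in m12_WD+VC, m12_WD and m12_CD+VC against 207 ± 83.4 CPM in m12_CD.

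**Figure D1:**
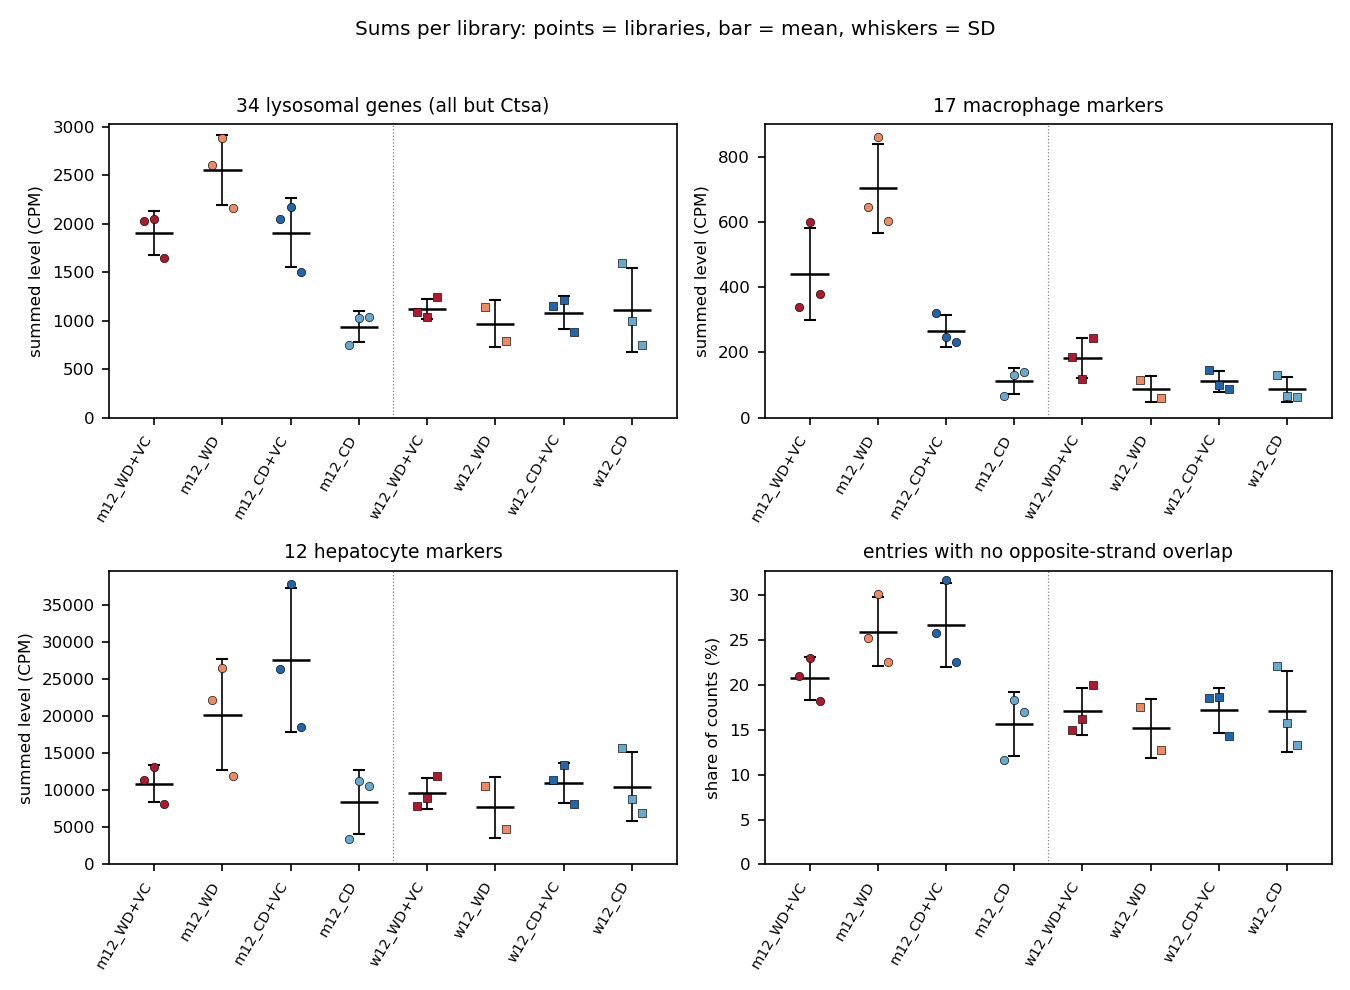
Summed level in CPM of 34 lysosomal genes, 17 macrophage markers and 12 hepatocyte markers, and the share of counts in percent on entries without an opposite-strand overlap, for the 8 groups. Points are libraries, bars group means and whiskers the SD; the lysosomal sum is 2169 to 2891 CPM in m12_WD and 753 to 1035 CPM in m12_CD.

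The first question was what the Western diet did at 12 months in mice that had breathed air. Of the 23 tested genes, 12 were higher and 1 was lower in m12_WD than in m12_CD (edgeR, adjusted p under 0.05), where 24.5% of the 4198 genes tested were called, 13.4% higher and 11.1% lower. In 16 of the 23 every m12_WD library exceeded every m12_CD library, as in 28.9% of all genes. The median log2 fold change was 1.25 over the tested genes and 0.11 over all genes. Among entries without an overlap it was 1.56 for the tested genes and 0.47 for all, and among entries with one 0.92 and -0.16. A low-count filter asked for 26.3 CPM in 3 libraries. Outside m12_WD, 19 of the 23 reached that, and 11 of these were higher and 1 lower. Hexa, Man2b2, Neu1 and Fuca1 reached it only with the m12_WD libraries. In bulk tissue, fewer cells of a type and less RNA per cell cannot be told apart.

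Psap, the precursor of the saposins that activate sphingolipid hydrolases, had the lowest p of the set. It stood at 204, 233 and 208 CPM in m12_WD, against 6.02, 21.3 and 18.1 CPM in m12_CD, a log2 fold change of 3.41 ± 0.51 (SE, adjusted p = 1.69e-05). The 3 m12_WD libraries lay close together and far above m12_CD, with no overlap. Grn, which encodes progranulin and is cleaved to granulins in the lysosome, reached 120, 120 and 68.6 CPM in m12_WD, against 3.01, 17 and 12.9 CPM in m12_CD (log2 fold change 2.79 ± 0.60, adjusted p = 0.00102). These groups did not overlap either. Among the other cofactors, Npc2, which carries cholesterol to Npc1, averaged 40.5 ± 21.9 CPM in m12_WD and 13 ± 3.99 CPM in m12_CD and was not called (1.19 ± 0.56, adjusted p = 0.114). Gm2a, the activator of Hexa, was too sparse to test, with 34 counts in m12_WD and 5 in m12_CD (ratio of CPM over the pooled counts 4.23, exact 95% interval 1.65 to 13.9).

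All 6 tested proteases passed the test, 5 of them higher. Ctsd stood at 187, 241 and 177 CPM in m12_WD, against 21.1, 40.4 and 54.3 CPM in m12_CD (log2 fold change 2.0 ± 0.42, adjusted p = 0.00087). Ctsh, a cysteine cathepsin with aminopeptidase activity, stood at 113, 86 and 90.4 CPM in m12_WD, against 3.01, 27.6 and 23.3 CPM in m12_CD (2.02 ± 0.51, adjusted p = 0.00454). In both genes every m12_WD library exceeded every m12_CD library. Ctsz averaged 217 ± 26.2 CPM in m12_WD and 83.3 ± 32.6 CPM in m12_CD (1.0 ± 0.31, adjusted p = 0.0188), and Ctsl 381 ± 88.3 and 142 ± 77.2 CPM (1.08 ± 0.36, adjusted p = 0.0279). The endopeptidase Ctsb averaged 171 ± 112 CPM in m12_WD and 57.3 ± 16.5 CPM in m12_CD (1.16 ± 0.42, adjusted p = 0.0413), with overlapping groups. Exons of Ctsb share 774 bases with Fdft1, an enzyme of sterol synthesis on the other strand with 7419 counts to the 695 of Ctsb, and the Fdft1 entry was also higher (0.96 ± 0.26, adjusted p = 0.0073).

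Ctsa ran the other way. It stood at 4791, 4332 and 5520 CPM in m12_WD, against 5025, 8213 and 12424 CPM in m12_CD, a log2 fold change of -1.15 ± 0.33 (adjusted p = 0.0108). The groups overlapped, and the highest m12_CD library carried much of the difference: without m12_CD 3 the adjusted p was 0.0804. The Ctsa locus (chr2:164832873-164841032, plus strand, GRCm38) has 4715 exon bases, of which 17.4% lie in exons of Pltp and Neurl2 on the other strand.

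Of 7 tested glycosidases, 3 were higher in m12_WD and the others were not called. Man2b1, the acid alpha-mannosidase, stood at 33.3, 22.1 and 49.9 CPM in m12_WD, against 0, 4.25 and 0 CPM in m12_CD (log2 fold change 3.89 ± 0.89, adjusted p = 0.00181). In pooled counts this was 75 against 2, a CPM ratio of 23.3 (exact 95% interval 6.24 to 196), and no library of one group reached the other. Hexa, the alpha subunit of beta-hexosaminidase, averaged 33 ± 12.5 CPM in m12_WD and 4.16 ± 5.47 CPM in m12_CD (2.52 ± 0.87, adjusted p = 0.032). Gaa, which degrades glycogen, averaged 36.5 ± 15.1 and 9.15 ± 3.5 CPM (1.56 ± 0.56, adjusted p = 0.0389). Man2b2, another mannosidase, had an adjusted p of 0.0555 (2.12 ± 0.82), the fucosidase Fuca1 0.112 (1.55 ± 0.72) and the sialidase Neu1 0.344 (1.25 ± 0.93). Gusb, the beta-glucuronidase, averaged 32.7 ± 5.92 CPM in m12_WD and 24.3 ± 10.6 CPM in m12_CD (0.06 ± 0.51, adjusted p = 0.962).

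Of the 3 tested lipid and sulfate hydrolases, Lipa was higher. Lipa is the acid lipase that hydrolyses cholesteryl esters and triglycerides from endocytosed lipoproteins, and it stood at 61.1, 83.5 and 13.5 CPM in m12_WD, against 0, 8.5 and 5.17 CPM in m12_CD (log2 fold change 2.96 ± 0.72, adjusted p = 0.00322). The m12_WD 3 library was well below the other m12_WD libraries but still above all of m12_CD. The thioesterase Ppt1 (0.38 ± 0.43, adjusted p = 0.546) and the sulfatide sulfatase Arsa (0.80 ± 0.41, adjusted p = 0.149) were not called.

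Of the 4 tested membrane proteins, Lamp1 was higher, at 243 ± 29.9 CPM in m12_WD and 106 ± 27.7 CPM in m12_CD (log2 fold change 0.83 ± 0.30, adjusted p = 0.0419). Lamp2, which also serves in chaperone-mediated autophagy, averaged 56.7 ± 27.7 CPM in m12_WD and 14.1 ± 9.75 CPM in m12_CD and missed the threshold (1.55 ± 0.60, adjusted p = 0.0553). Scarb2, the carrier of glucocerebrosidase, and Npc1, the cholesterol exporter, were not called (-0.65 ± 0.75 and -0.23 ± 0.26, adjusted p = 0.563 and 0.548). Npc1 had group means of 208 to 278 CPM over all 8 groups. Cd63, a tetraspanin of late endosomes and lysosomes, was too sparse to test but held 36 counts in m12_WD and 2 in m12_CD, a CPM ratio of 11.2 (exact 95% interval 2.88 to 96.1). Other sparse genes differed less. Tpp1 averaged 5.74 ± 5.12 CPM in m12_WD and 3.85 ± 3.39 CPM in m12_CD, and Laptm4a 5.07 ± 4.11 and 3.59 ± 3.91 CPM. Gla had a lower mean in m12_WD (0.617 and 2.13 CPM), and Glb1 held 0 counts in both. Means of Ctsc, Ctsf, Manba, Asah1, Arsb and Smpd1 were higher in m12_WD.

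**Figure D2:**
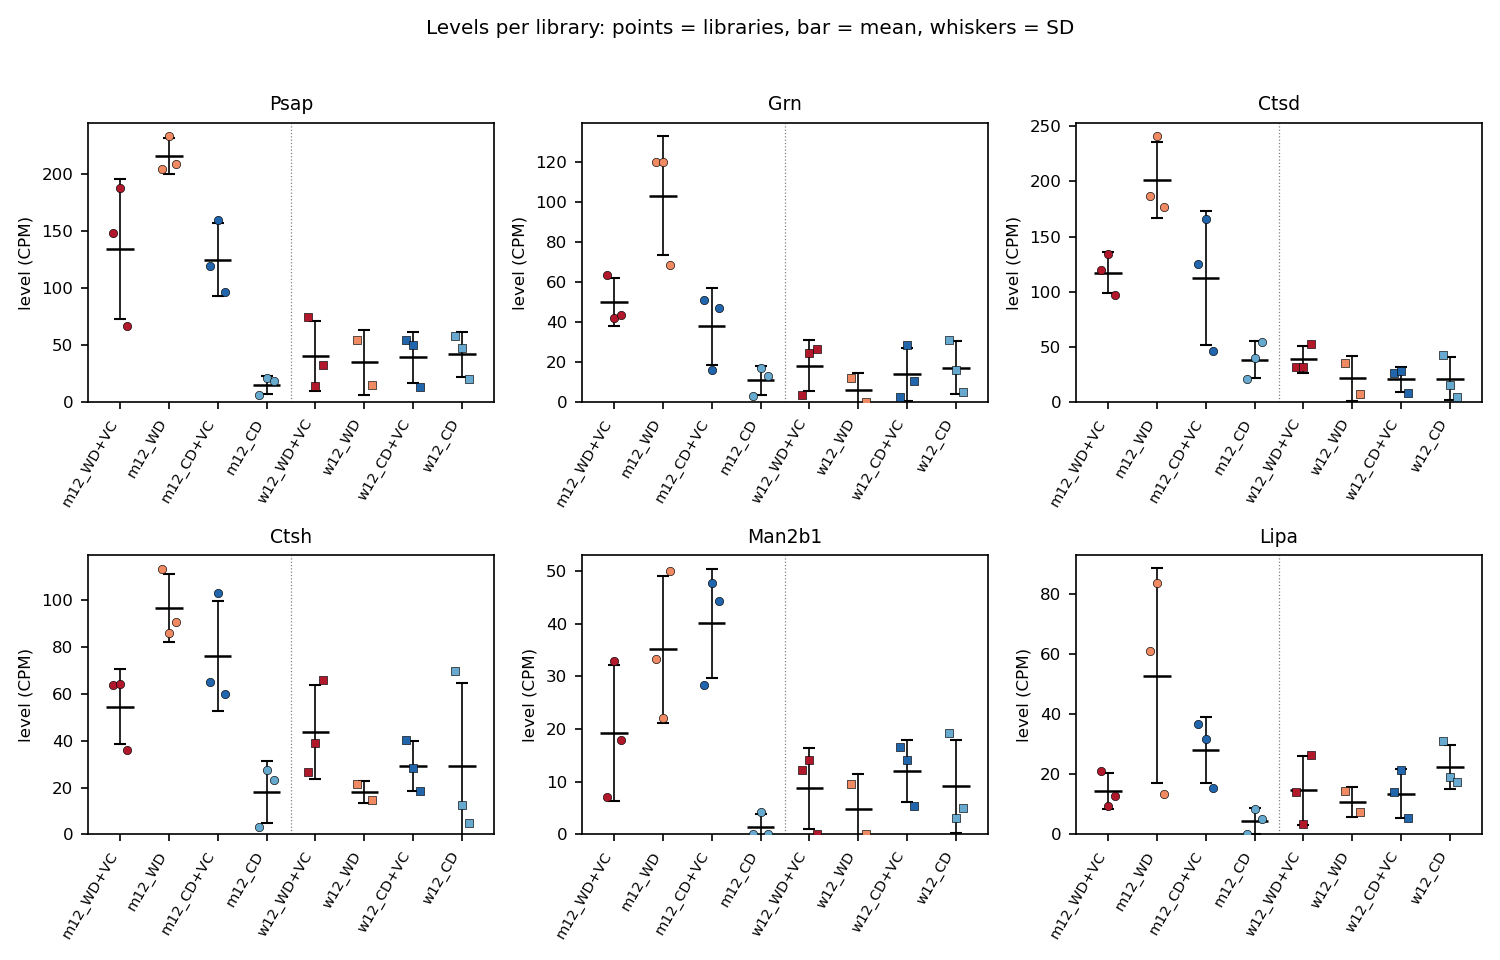
Levels in CPM of Psap, Grn, Ctsd, Ctsh, Man2b1 and Lipa in each library of the 8 groups. Points are libraries, bars group means and whiskers the SD (drawn down to 0 at most); in all 6 genes every m12_WD library lies above every m12_CD library.

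The call count of 13 fell to 7 without m12_CD 1 and to 8 without m12_CD 3 or without m12_WD 2, and was 5 when only the m12_WD and m12_CD libraries were fitted. Psap, Ctsd and Ctsh were called in all 15 alternatives. Grn, which has an overlap, and Man2b1 and Lipa were called in the 13 alternatives that tested them. Man2b1 and Lipa did not pass the low-count filter with those 2 groups alone or with entries without an overlap alone. With RLE size factors, which shift the median of all genes by 0.39, the called genes split into 915 higher and 253 lower in place of 562 and 466. Ctsa was still called under RLE (-0.78, adjusted p = 0.0476).

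Markers of other liver cells differed between the same groups. Of 17 macrophage markers, 9 were tested and 6 were higher in m12_WD: Lyz2 (log2 fold change 5.19, adjusted p = 0.000102), Cd5l (3.37), C1qa, C1qb, C1qc and Gpnmb. Among the 9, Gpnmb and Csf1r reached the low-count filter only with the m12_WD libraries. The macrophage sum was 603 to 857 CPM in m12_WD, against 66.2 to 140 CPM in m12_CD, where Gpnmb, Trem2, Itgax, Ms4a7 and Mmp12 were at 0 counts. In m12_WD all 17 were above 0. Of 12 hepatocyte markers, 11 were tested and Apob, Trf and Hpx were higher, with a sum of 11914 to 26446 CPM in m12_WD and 3441 to 11255 CPM in m12_CD. The stellate sum of 10 markers was 189 to 214 CPM in m12_WD and 18.1 to 38.3 CPM in m12_CD, with Dcn and Col3a1 higher of 3 tested, and the endothelial sum of 9 markers was 131 to 192 and 33.6 to 61.7 CPM, with Stab2 higher of 2 tested. The 5 cholangiocyte markers summed to 20.4 to 38.4 CPM in m12_WD and 0 to 5.17 CPM in m12_CD, and the 7 lymphocyte markers to 7.4 to 29.5 and 0 to 4.25 CPM, with none tested. The part of these cell markers and of the no-overlap share in the lysosomal result was not tested.

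Other genes of the pathway were read in the same comparison. Of 43 further lysosomal genes 11 were tested, with 3 higher and 2 lower. Ctss, a cysteine cathepsin typical of antigen-presenting cells, held 101 counts in m12_WD and 0 in m12_CD, at least 21-fold higher if the group at 0 is set to its limit of 3 pooled counts (adjusted p = 0.000317). The asparaginyl endopeptidase Lgmn (log2 fold change 3.52, adjusted p = 0.000906) and the acid phosphatase Acp5 (1.64, adjusted p = 0.0256) were also higher, while the iduronidase Idua (-0.86, adjusted p = 0.0124) and the calcium channel Mcoln1 (-2.05, adjusted p = 0.0342) were lower. Of 20 autophagy genes 8 were tested and 4 were higher. These were the cargo receptors Sqstm1 (1.49, adjusted p = 0.00429) and Optn (1.35, adjusted p = 0.0239) and the ubiquitin-like Gabarap and Gabarapl1. Among the genes called in this paragraph Acp5, Idua, Sqstm1, Optn and Gabarapl1 have an opposite-strand overlap. Ctss, Lgmn, Mcoln1 and Gabarap have none. Also tested were 2 of 19 lysosome regulators, 3 of 17 V-ATPase subunits, 5 of 18 sorting genes and 3 of 5 cathepsin inhibitors. None of them was called (edgeR). In that order 0, 1, 1 and 2 had an unadjusted p under 0.05, as had 1585 of all 4198 genes.

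The same diet comparison among mice that had inhaled VC called none of the 23 genes, m12_WD+VC over m12_CD+VC (edgeR, 1.81% of genes called), nor did DESeq2 or limma-voom. Of the 23, 1 had an unadjusted p under 0.05 (14.7% of all genes), Arsa, at 70.8 ± 15.5 CPM in m12_WD+VC and 31.2 ± 5.5 CPM in m12_CD+VC (log2 fold change 1.22 ± 0.45, adjusted p = 0.176). Scarb2 (-1.31 ± 0.80, adjusted p = 0.462) and Npc1 (0.44 ± 0.27, adjusted p = 0.464) came next. Psap stood at 148, 187 and 66.7 CPM in m12_WD+VC, against 119, 159 and 96.3 CPM in m12_CD+VC (0.17 ± 0.44, adjusted p = 0.913). Ctsd stood at 120, 134 and 97.5 CPM in m12_WD+VC, against 125, 166 and 46.8 CPM in m12_CD+VC (0.19 ± 0.42, adjusted p = 0.899). Both VC groups overlapped in these genes and lay between m12_WD and m12_CD by their means. The median log2 fold change of the tested genes was 0.05, against -0.01 over all genes. Among the 12 sparse genes, Cd63 held 24 counts in m12_WD+VC and 1 in m12_CD+VC, a CPM ratio of 17.7 (exact 95% interval 2.88 to 727). The interval lay below 1 for the dipeptidyl peptidase Ctsc (12 counts in m12_WD+VC and 23 in m12_CD+VC, ratio 0.384, interval 0.174 to 0.805), the tripeptidyl peptidase Tpp1 (5 and 13, ratio 0.283, interval 0.0791 to 0.847), the acid ceramidase Asah1 (10 and 19, ratio 0.388, interval 0.161 to 0.877) and Gm2a (8 and 17, ratio 0.347, interval 0.13 to 0.848). For the other 7 the interval included 1 or could not be given. In rising order Asah1 stood at 7.07, 7.7 and 9.36 CPM in m12_WD+VC, against 0, 5.66 and 44.2 CPM in m12_CD+VC. The highest m12_CD+VC library thus carried its ratio, and the median was higher in m12_WD+VC. The macrophage sum was 339 to 601 CPM in m12_WD+VC and 232 to 320 CPM in m12_CD+VC.

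The next question was whether VC inhaled for 12 weeks still left a difference 9 months later. On control diet 2 of the 23 genes were higher in m12_CD+VC than in m12_CD, with 5.22% of all genes called and 4.1% called higher. Psap stood at 119, 159 and 96.3 CPM in m12_CD+VC, against 6.02, 21.3 and 18.1 CPM in m12_CD (log2 fold change 2.60 ± 0.53, adjusted p = 0.00959). Man2b1 stood at 28.3, 47.6 and 44.2 CPM in m12_CD+VC, against 0, 4.25 and 0 CPM in m12_CD (4.03 ± 0.91, adjusted p = 0.0147), or 33 counts against 2 (CPM ratio 22.7, exact 95% interval 5.81 to 195). Neither gene overlapped between the groups. In all 10 of the 23 had an unadjusted p under 0.05 (28% of all genes), among them Ctsh (1.63 ± 0.54, adjusted p = 0.0684), Lipa (2.09 ± 0.78, adjusted p = 0.0943) and Lamp2 (1.60 ± 0.63, adjusted p = 0.107), and Ctsa had -0.88 ± 0.33 (adjusted p = 0.0965). The median over the tested genes was 1.04, against 0.07 over all genes. For entries without an overlap it was 1.37, against 0.58. Of the 12 sparse genes, Ctsc, Tpp1, Asah1, Arsb, Smpd1 and Gm2a had pooled CPM ratios of 3.58 to 8.72. Their exact 95% intervals lay above 1. Asah1 led with 19 counts in m12_CD+VC and 3 in m12_CD (interval 2.57 to 46). In rising order its libraries stood at 0, 5.66 and 44.2 CPM in m12_CD+VC, against 0, 0 and 7.76 CPM in m12_CD. The groups thus overlapped, and most of the 19 counts lay in the highest library.

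This contrast shares the m12_CD libraries with the diet contrast in air. Both calls were lost without m12_CD 1 (adjusted p = 0.0936 for Psap and 0.0949 for Man2b1). The count was 1 without m12_CD 3 or m12_CD+VC 2, 4 without m12_CD+VC 3, and 7 with RLE size factors, which move the median of all genes by 0.42 and give 434 genes higher and 8 lower in place of 172 and 47. The hepatocyte sum was 18534 to 37865 CPM in m12_CD+VC and 3441 to 11255 CPM in m12_CD, with Alb, Ttr, Apob, Trf and Hpx higher of 11 tested. The macrophage sum was 232 to 320 and 66.2 to 140 CPM, with none of 9 called and 3 at an unadjusted p under 0.05. The stellate sum was 101 to 150 CPM in m12_CD+VC and 18.1 to 38.3 CPM in m12_CD, with none of 3 tested called and 2, Col3a1 and Dcn, at an unadjusted p under 0.05. The endothelial sum was 59.9 to 139 and 33.6 to 61.7 CPM. The part of these markers and of the no-overlap share was not tested. Among the further lysosomal genes Ctss was called (adjusted p = 0.0475), with 13 counts in m12_CD+VC, all in 1 library, and 0 in m12_CD, at least 5.97-fold higher by the same limit.

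On Western diet none of the 23 genes was called between m12_WD+VC and m12_WD (edgeR, 0.572% of genes called), with 2 at an unadjusted p under 0.05 (10.9% of all genes). Lipa stood at 21.2, 9.36 and 12.8 CPM in m12_WD+VC, against 61.1, 83.5 and 13.5 CPM in m12_WD (log2 fold change -1.90 ± 0.65, adjusted p = 0.239), and limma-voom called 1 gene where edgeR called none. Ctsb (-0.86 ± 0.41, adjusted p = 0.447) and Grn (-1.04 ± 0.52, adjusted p = 0.458) followed. Grn stood at 63.6, 42.1 and 43.6 CPM in m12_WD+VC, against 120, 120 and 68.6 CPM in m12_WD, without overlap. The median of the tested genes was -0.39, against -0.04 over all genes.

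**Figure D3:**
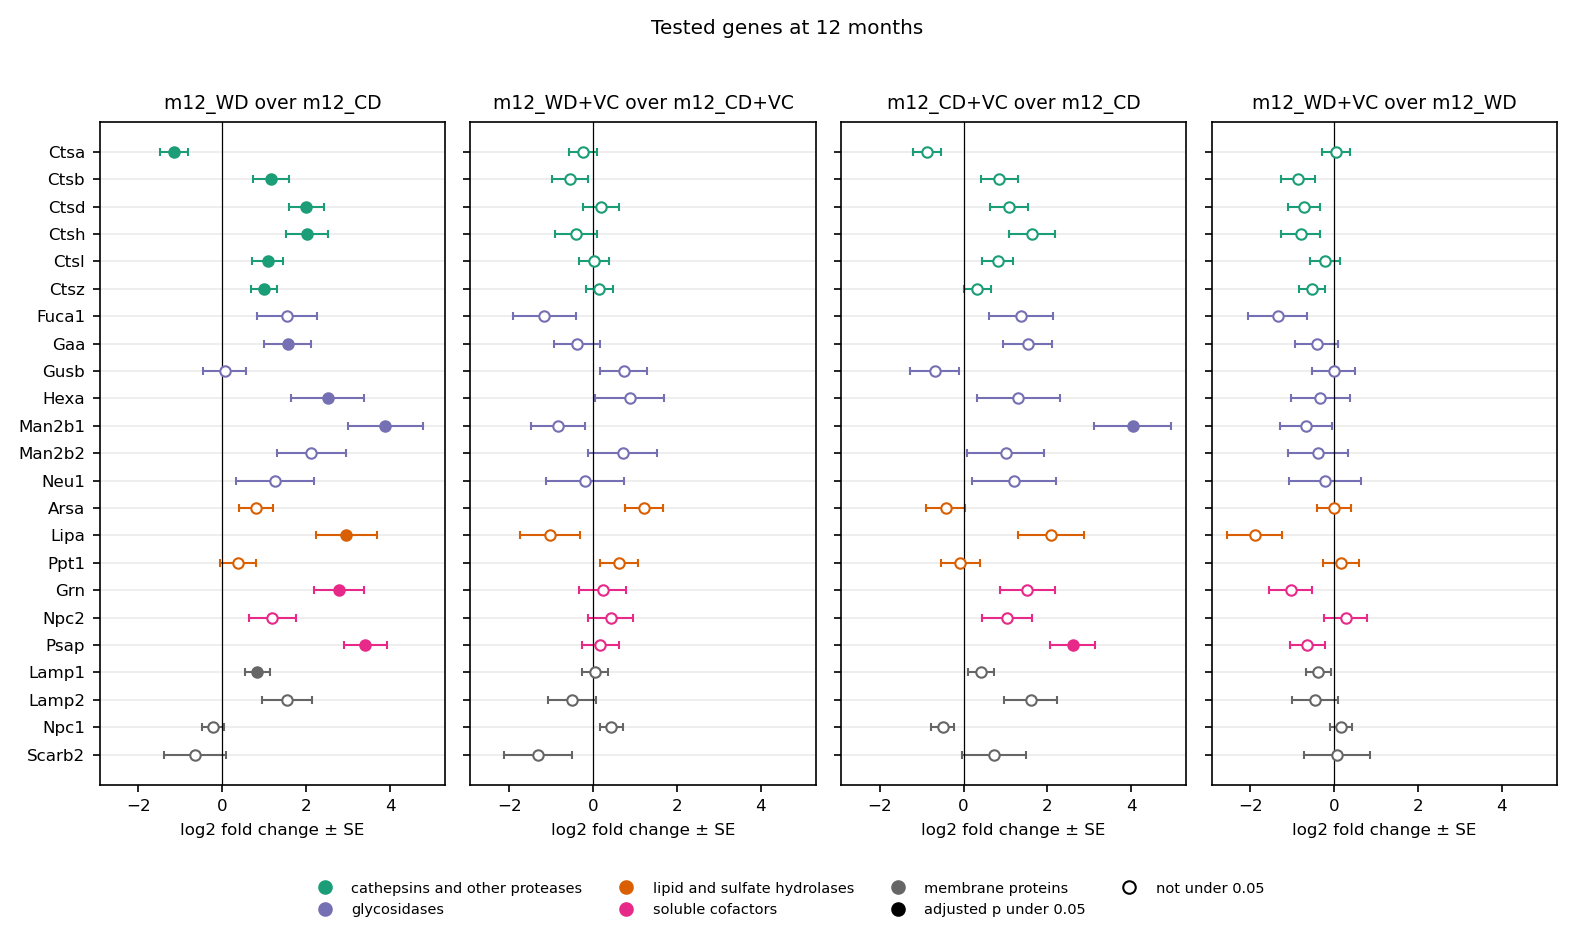
Log2 fold change ± SE of the 23 tested genes in the 4 comparisons at 12 months, tested over its control in each panel title, coloured by role, with filled points where the adjusted p was under 0.05. The panels hold 13, 0, 2 and 0 filled points, from Western diet in air on the left to VC on Western diet on the right.

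Whether the diet effect differed between VC and air mice at 12 months was tested as an interaction, the diet effect with VC minus that in air. It was lower for 6 of the 23 genes, with 9.81% of all genes called and 6.48% called lower. These were Psap (log2 difference -3.24 ± 0.67, adjusted p = 0.00549), Man2b1 (-4.72 ± 1.12, adjusted p = 0.0111), Lipa (-3.99 ± 1.02, adjusted p = 0.0149), Ctsh (-2.43 ± 0.72, adjusted p = 0.032), Grn (-2.55 ± 0.83, adjusted p = 0.046) and Ctsd (-1.81 ± 0.59, adjusted p = 0.0472). For Lipa the means were 14.5 ± 6.09 CPM in m12_WD+VC and 28 ± 11.1 CPM in m12_CD+VC, against 52.7 ± 35.7 CPM in m12_WD and 4.56 ± 4.29 CPM in m12_CD. Ctsh averaged 54.5 ± 16.1 CPM in m12_WD+VC and 76 ± 23.6 CPM in m12_CD+VC, against 96.4 ± 14.4 CPM in m12_WD and 18 ± 13.1 CPM in m12_CD. In both genes the WD mean was below the CD mean with VC and above it in air. Ctsa had a difference of 0.92 ± 0.46 (adjusted p = 0.18). The median was -1.43 over the tested genes and -0.04 over all, and -1.95 against -0.73 among entries without an overlap.

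The count was 3 without m12_CD 1, m12_CD+VC 2 or m12_WD 1, 2 without m12_WD+VC 3, and 10 with RLE size factors, which shift the median of all genes by -0.52 and give 39 genes higher and 481 lower in place of 140 and 272. Psap was called in all 21 alternatives and Man2b1 in the 20 that tested it, since it did not pass the filter among entries without an overlap alone. The interaction was also lower for the macrophage markers Cd5l (-2.91, adjusted p = 0.044) and Lyz2 (-4.49, adjusted p = 0.0172) of 9 tested, for Alb, Ttr, Apoa1, Apob, Trf and Hpx of 11 tested hepatocyte markers, and for Ctss among further lysosomal genes. None of 3 tested stellate markers was called, with 2 at an unadjusted p under 0.05 (1240 of all 4198 genes). Their part in the result was not tested.

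At 12 weeks none of the 23 genes was called for diet or VC by edgeR, DESeq2 or limma-voom. For w12_WD over w12_CD 0.0238% of all genes were called, and 1 of the 23 had an unadjusted p under 0.05 (5.65% of all genes), Lamp1, at 87.7 ± 40.6 CPM in w12_WD (n = 2) and 156 ± 62 CPM in w12_CD (log2 fold change -0.77, adjusted p = 0.854), ahead of Fuca1 (-1.60, adjusted p = 0.946) and Lamp2 (-0.84, adjusted p = 0.95). For w12_WD+VC over w12_CD+VC, with 0.524% called, none of the 23 had an unadjusted p under 0.05 (10.7% of all genes), and Man2b2 (2.18, adjusted p = 0.525), Ctsz (0.61, adjusted p = 0.561) and Ctsd (0.94, adjusted p = 0.57) came first. For w12_CD+VC over w12_CD, with 0% called, none had an unadjusted p under 0.05 (4.05% of all genes), and the first were Neu1 (-1.56), Ctsa (-0.42) and Gusb (-0.69), all with an adjusted p of 1. For w12_WD+VC over w12_WD, again with 0% called, none had an unadjusted p under 0.05 (5.6% of all genes), and the first were Gusb (-1.24, adjusted p = 0.92), Ctsh (1.12, adjusted p = 0.95) and Lamp1 (0.56, adjusted p = 0.95).

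The libraries taken at 12 months were also set against those at 12 weeks, which differ in age and in time since exposure. On Western diet in air 9 of the 23 genes were higher in m12_WD than in w12_WD, with 14.6% of all genes called and 7.74% called higher, and the median of the tested genes was 1.47 against 0.21 over all. All 6 tested proteases were among them: Ctsd (log2 fold change 2.75 ± 0.55, adjusted p = 0.000844), Ctsb (2.15 ± 0.55, adjusted p = 0.00803), Ctsl (1.72 ± 0.44, adjusted p = 0.00823), Ctsz (1.38 ± 0.39, adjusted p = 0.0137), Ctsa (1.27 ± 0.36, adjusted p = 0.0163) and Ctsh (2.15 ± 0.64, adjusted p = 0.0217). Ctsd stood at 187, 241 and 177 CPM in m12_WD, against 35.7 and 7.38 CPM in w12_WD. The cofactors Grn (3.39 ± 0.79, adjusted p = 0.00405) and Psap (2.24 ± 0.55, adjusted p = 0.00594) and the membrane protein Lamp1 (1.22 ± 0.36, adjusted p = 0.0213) were the others. Psap stood at 204, 233 and 208 CPM in m12_WD, against 54.7 and 14.8 CPM in w12_WD, without overlap. None of the 7 glycosidases was called, and 4 of them had an unadjusted p under 0.05 (28.5% of all genes).

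This contrast rests on few w12_WD libraries, and without w12_WD 2 the count was 2. Ctsd was called in all 14 alternatives. Of the companion genes Lgmn, Acp5, M6pr, Sqstm1 and Gabarapl1 were also higher, of which Acp5, Sqstm1 and Gabarapl1 have an overlap. M6pr, the cation-dependent mannose 6-phosphate receptor that sorts hydrolases to the lysosome, held 74 counts in m12_WD and 2 in w12_WD, a CPM ratio of 10.8 (exact 95% interval 2.88 to 90.7). M6pr reached the low-count filter only with the m12_WD libraries. Of 9 tested macrophage markers 6 were higher in m12_WD, with a sum of 603 to 857 CPM against 59 to 116 CPM in w12_WD, where Lyz2, Gpnmb, Trem2, Itgax, Ms4a7 and Mmp12 were at 0 counts. Here too, Gpnmb and Csf1r were tested only through the m12_WD libraries. The hepatocyte sum was 11914 to 26446 CPM in m12_WD and 4816 to 10562 CPM in w12_WD, with Apoa1, Apob, Fgb, Hpx and Trf higher of 11 tested. The stellate sum was 189 to 214 CPM in m12_WD and 29.5 to 49.9 CPM in w12_WD, with none of 3 called and Col3a1 and Dcn at an unadjusted p under 0.05. The endothelial sum was 131 to 192 and 29.5 to 78.4 CPM, with none of 2 called. Their part was not tested.

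On control diet the time comparison gave fewer calls. For m12_CD+VC over w12_CD+VC 3 proteases were higher, with 6.38% of genes called and 3.24% higher. Ctsd averaged 113 ± 60.7 CPM in m12_CD+VC and 20.8 ± 11.2 CPM in w12_CD+VC (log2 fold change 2.21 ± 0.51, adjusted p = 0.0109), Ctsb 134 ± 23.7 and 43.5 ± 24.5 CPM (1.55 ± 0.47, adjusted p = 0.047), and Ctsa had 1.57 ± 0.34 (adjusted p = 0.00762). Without m12_CD+VC 1, m12_CD+VC 3 or w12_CD+VC 3 the count was 1. The median of the tested genes was 0.94 against 0.13 over all, and 1.10 against 0.52 among entries without an overlap. Of the 23, 19 lay above 0, as did 2330 of all 4198 genes. An unadjusted p under 0.05 was found for 10 of the 23 (24.9% of all genes), among them all 6 tested proteases. The hepatocyte sum was 18534 to 37865 CPM in m12_CD+VC and 8178 to 13433 CPM in w12_CD+VC, with Alb and Trf higher of 11 tested. The macrophage sum was 232 to 320 and 88 to 147 CPM, with C1qa higher of 9 tested and 5 at an unadjusted p under 0.05, and the stellate sum 101 to 150 and 32 to 71 CPM, with none of 3 called. Their part was not tested. Whether the time effect on control diet with VC differed from that of the other groups was not tested.

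For m12_CD over w12_CD only Ctsa was called, with 1.62% of genes called and 0.691% higher, and the median of the tested genes was -0.20. Lamp2 (-1.70 ± 0.62, adjusted p = 0.151) and Lipa (-2.0 ± 0.78, adjusted p = 0.188) were next by p. For m12_WD+VC over w12_WD+VC edgeR called none of the 23 (0.786% of genes called), with 7 at an unadjusted p under 0.05 (11.8% of all genes), led by Ctsa (1.17 ± 0.33, adjusted p = 0.0925), Ctsd (1.47 ± 0.46, adjusted p = 0.131) and Psap (1.34 ± 0.46, adjusted p = 0.182). RLE size factors and DESeq2 called 1, limma-voom 4, a fit of those 2 groups alone 2, and leaving out w12_WD+VC 1 gave 1.

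**Figure D4:**
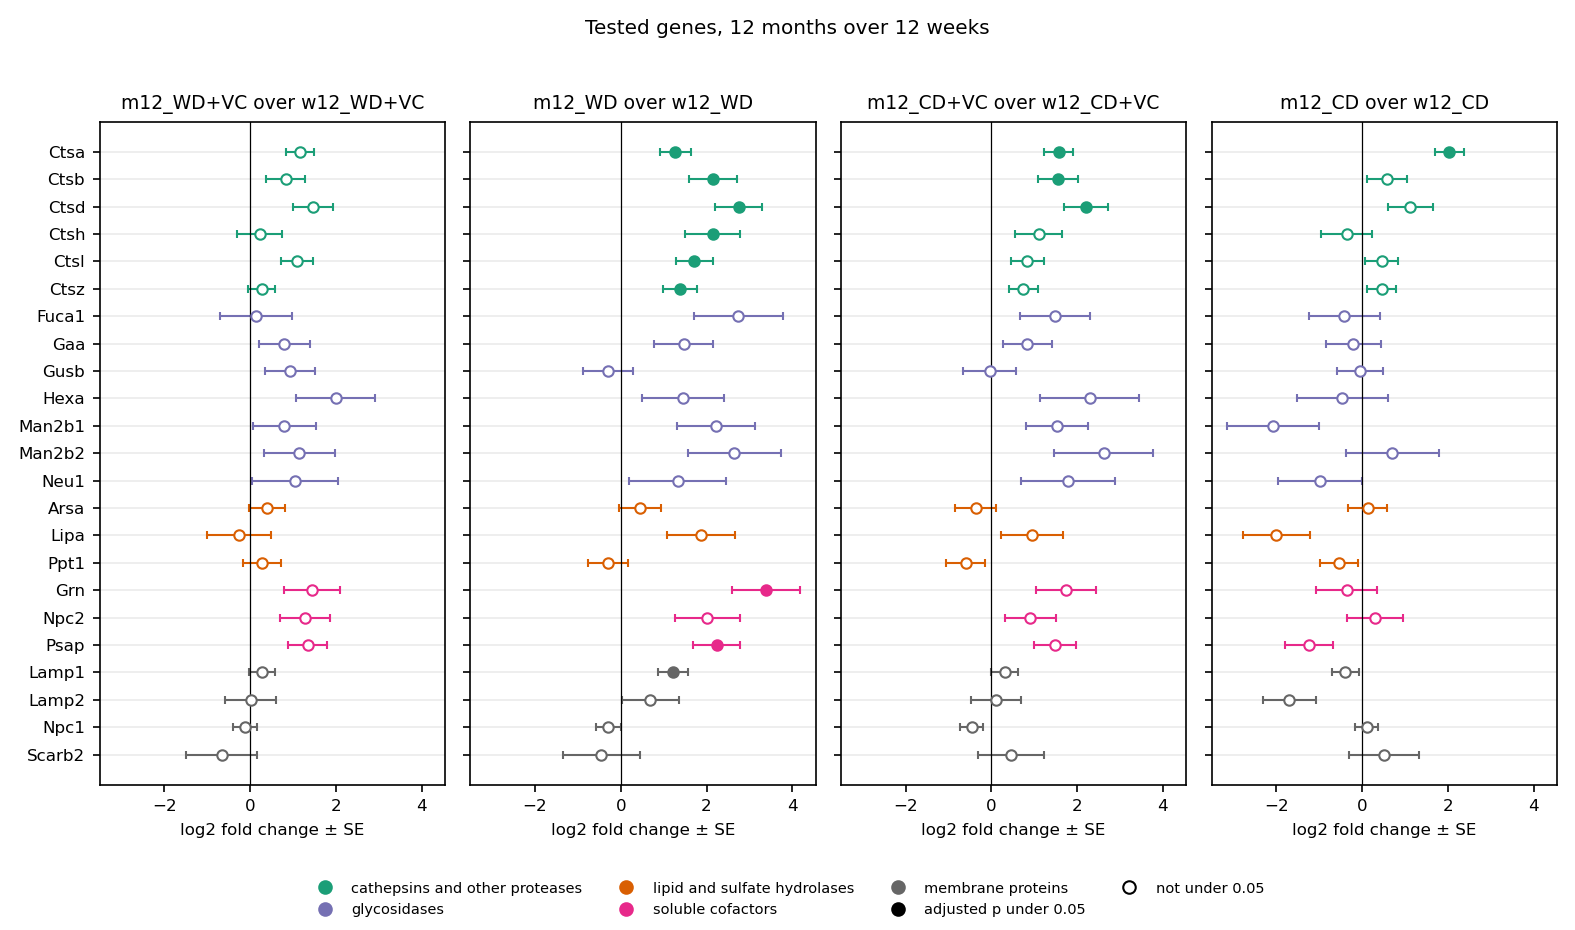
Log2 fold change ± SE of the 23 tested genes at 12 months over 12 weeks in each diet and exposure, coloured by role, with filled points where the adjusted p was under 0.05. From left to right the panels hold 0, 9, 3 and 1 filled points.

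Whether the diet effect in air differed between the times was tested directly, as the effect at 12 months minus that at 12 weeks. It was higher for 4 of the 23 genes, with 6.67% of all genes called and 3.41% higher: Psap (log2 difference 3.48 ± 0.78, adjusted p = 0.00856), Lipa (3.88 ± 1.11, adjusted p = 0.0337), Grn (3.75 ± 1.09, adjusted p = 0.0353) and Lamp1 (1.61 ± 0.48, adjusted p = 0.0371). The median was 1.68 over the tested genes and 0.18 over all. Lipa stood at 61.1, 83.5 and 13.5 CPM in m12_WD and 0, 8.5 and 5.17 CPM in m12_CD, against 14.3 and 7.38 CPM in w12_WD and 31, 19 and 17.5 CPM in w12_CD. The WD libraries were thus above those on CD at 12 months and below them at 12 weeks. The count was 0 without w12_WD 2, 1 without w12_CD 1, w12_CD 2, m12_CD 1, m12_WD 1 or m12_WD 2, and 2 without w12_WD 1. Ctss, M6pr and Lyz2 were also called higher, and of 11 tested hepatocyte markers Apob, Trf, Hpx and Fgb were. Of these, M6pr passed the low-count filter only through m12_WD.

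Ctsa was the member with a time difference on every diet by its levels. It stood at 4079, 5486 and 4970 CPM in m12_WD+VC, against 2212, 1575 and 1861 CPM in w12_WD+VC. It stood at 4791, 4332 and 5520 CPM in m12_WD, against 1871 and 1719 CPM in w12_WD. It stood at 5590, 3107 and 8486 CPM in m12_CD+VC, against 1835, 1171 and 2045 CPM in w12_CD+VC. In none of these pairs did the times overlap. In that order, 772, 1296 and 864 of the 4198 tested genes were likewise higher at the later time without overlap. Between m12_WD+VC and w12_WD+VC, edgeR did not call Ctsa (adjusted p = 0.0925). On control diet in air Ctsa stood at 5025, 8213 and 12424 CPM in m12_CD, against 3371, 1901 and 1654 CPM in w12_CD (log2 fold change 2.03 ± 0.34, adjusted p = 0.00094). Again the times did not overlap, and 273 of the 4198 tested genes were higher without overlap. The Ctsa call was kept in the 13 alternatives that tested it.

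The neighbours on the other strand were not called for that difference. Ctsa exons share 495 bases with Pltp, which encodes phospholipid transfer protein and held 9959 counts, and 324 bases with Neurl2, with 4005 counts. Pltp averaged 1220 ± 524 CPM in m12_CD and 869 ± 186 CPM in w12_CD (log2 fold change 0.66, adjusted p = 0.346), and Neurl2 454 ± 29.2 and 520 ± 172 CPM (-0.10, adjusted p = 0.935). Neither was called in the other 3 pairs. Pltp averaged 1793 ± 285 CPM in m12_WD+VC and 840 ± 112 CPM in w12_WD+VC (0.91, adjusted p = 0.203, unadjusted p = 0.00898), and 1284 ± 363 CPM in m12_WD and 854 ± 59.9 CPM in w12_WD (0.49, adjusted p = 0.378), without overlap in either pair, as with Ctsa. In m12_CD+VC and w12_CD+VC it averaged 953 ± 186 and 737 ± 167 CPM (0.16, adjusted p = 0.796). Neurl2 had 0.12, -0.48 and -0.71 in these pairs (adjusted p = 0.955, 0.365 and 0.156). For m12_WD over m12_CD, Pltp had -0.33 (adjusted p = 0.484) and Neurl2 -0.62 (adjusted p = 0.132). A missed threshold does not show that the neighbours were equal between groups, and how many Ctsa counts come from either strand was not tested. With the strand setting of the counting unknown, reads of Pltp or Neurl2 could lie on the Ctsa entry, and reads of Ctsa on theirs. The levels of these entries therefore cannot tell which gene differed. The longest overlaps were with genes for which no counts were used here, 1948 bases of Arsb with Gm26527 and 1742 bases of Ctsl with the antisense gene Gm47123. Among the other overlapped members, Ctsz shares 10 bases with Nelfcd (2042 counts to 1069 of Ctsz), Arsa shares 690 bases with C230037L18Rik (5635 counts to 447 of Arsa), Npc1 511 with the entry 3110002H16Rik (5130 to 2051) and Ppt1 129 with Cap1 (2594 to 874). The overlaps of Grn with Fam171a2 (68 bases, 42 counts), Lamp1 with Grtp1 (249 bases, 36 counts) and Hexa with Tmem202 (255 bases, 1 count) involved neighbours with few counts.

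**Figure D5:**
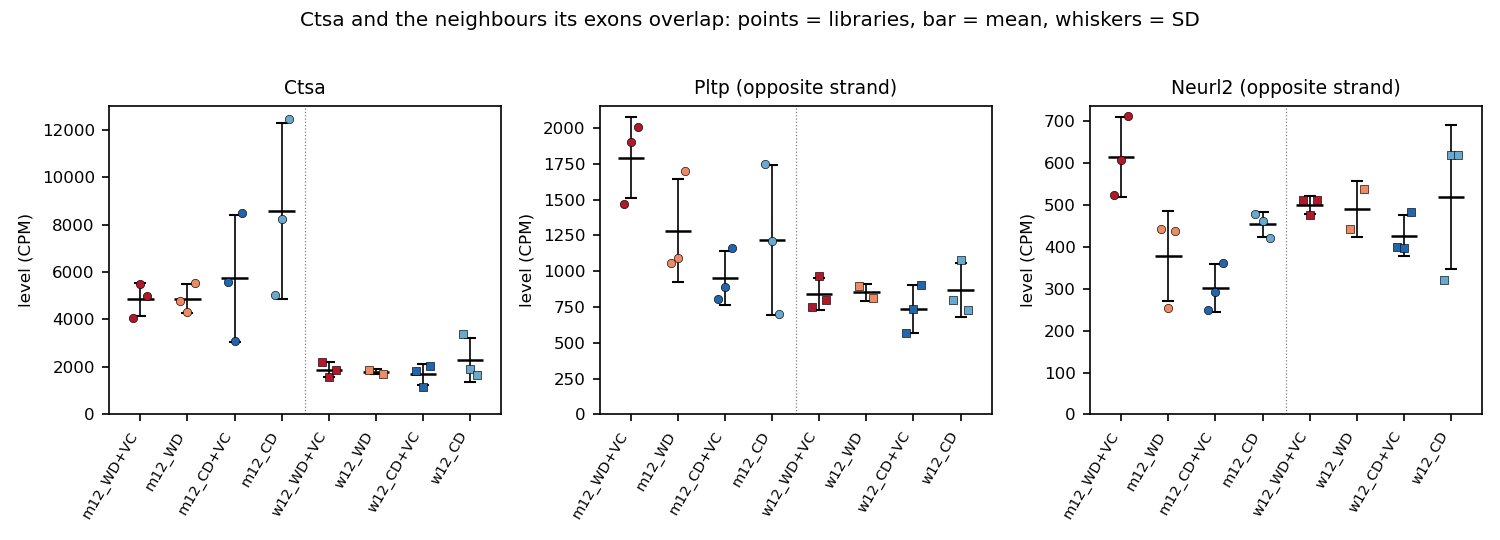
Levels in CPM of Ctsa and of Pltp and Neurl2, whose exons overlap it on the opposite strand, in each library of the 8 groups. Points are libraries, bars group means and whiskers the SD; all Ctsa points are at 3107 CPM or more in the m12 groups and at 3371 CPM or less in the w12 groups.

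Set beside the start regions shown above, 4 of the 10 genes with a window that were higher in m12_WD than in m12_CD held CACGTG, namely Ctsd, Ctsl, Gaa and Lamp1, as did Ctsa, the gene that was lower. Of 9 tested genes with a window that were not called 1 held it, Arsa, and of 11 genes with a window that were not tested 3 did. Psap, Grn, Man2b1 and Lipa, 4 of the 6 genes called in each alternative that tested them, showed no CACGTG in these windows.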

How the data were processed

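Liver total RNA was sequenced on a HiSeq2500 after ribosomal depletion with a TruSeq RNA v2 kit, per the labels' protocols. Whether the reads kept their strand was not tested. Trimmomatic 0.38, HISAT2 2.1.0, HTSeq 0.11.2 and mm10 were used, per the submitters' processing notes. The annotation and strand setting of the counting were not given in the sources used here. Either could change the counts of any gene, with or without an overlap. Overlapped entries held 78.48% of all counts, and whether reads were counted on the wrong strand was not tested. Psap, Ctsd, Ctsh, Man2b1 and Lipa, which have no overlap, are therefore not free of this doubt. Tests used the raw counts as deposited, 24421 entries in 1 table. The deposited log2 values of single samples were found to be those counts over a size factor, plus 1, on the log2 scale (0 differ by over 1e-06) and were not tested.

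Libraries were grouped by the labels. Replicates differed beyond sampling noise (chi-square per degree of freedom 2.41 to 10.6). Each library was entered as 1 unit, though such spread can also be technical. Counts were filtered, TMM-scaled and fitted with the quasi-likelihood test of edgeR 4.0.16 (R 4.3.3) in 1 model of 8 groups and 24 libraries. The 4198 genes that passed were adjusted by Benjamini-Hochberg within each of 14 comparisons at 0.05, and "called" means past it. A fold change is a log2 ratio with its standard error. CPM are counts scaled by the library total, and a level per kilobase divides by exon length. Opposite-strand exon overlap came from GENCODE M21 (GRCm38), and start windows from RefSeq. Scripts were tested on simulated data.

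The members, gene lists and tests were chosen with earlier results of these data known. Up to 12 called members a comparison, or else the 3 with the smallest p, are named. Of each other list up to 4 called genes were to be named, but for some lists more are. Alternatives were RLE size factors, no filter, DESeq2 1.42.0, limma-voom 3.58.1 with quality weights, the compared groups alone, a replicate block, entries without overlap alone and leaving out each library.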

Additional observations from a re-analysis of the deposited data

Results flagged for a closer look

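The diet effect at 12 months differed between VC and air mice for 6 genes, by an interaction test in edgeR. The log2 difference was -3.24 for Psap, -4.72 for Man2b1, -3.99 for Lipa, -2.43 for Ctsh, -2.55 for Grn and -1.81 for Ctsd. All 6 were called lower, as were 6.48% of all genes tested.

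The diet effect in air differed between 12 months and 12 weeks for 4 genes, by the same kind of test. The log2 difference was 3.48 for Psap, 3.88 for Lipa, 3.75 for Grn and 1.61 for Lamp1. Both tests use the m12_WD and m12_CD libraries, so they are not independent of each other.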

How the results depend on the processing

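For 38 results of single genes, alternatives kept the call in 420 cases, lost it in 147 and reversed it in 0. For Western diet in air at 12 months, 13 called genes became 7 with no filter, 5 with the compared groups alone and 3 with entries without overlap alone. With TMM over entries without overlap, chosen after seeing the data, 5 of 13 tested were called. For VC on control diet, 2 became 7 with RLE and 1 with entries without overlap alone, and for VC on Western diet 0 became 1 with limma-voom. The interaction went from 6 to 10 with RLE, 3 with no filter, 1 with entries without overlap alone and 3 with the added scaling. For time, counts with entries without overlap alone and with the added scaling were 0 and 0 on CD, 1 and 1 on CD+VC, and 3 and 3 on WD. On WD+VC 0 became 1 with RLE, 1 with DESeq2, 4 with limma-voom and 2 with the compared groups alone. Diet by time went from 4 to 2 with no filter, 2 with DESeq2, 1 with entries without overlap alone and 1 with the added scaling. With TMM-scaled CPM the sum without Ctsa was 1185 in m12_CD and 1300 in w12_WD+VC. Tests of entries without overlap alone held fewer genes, and other causes were not tested. Leaving out 1 library gave 7 to 15 (diet in air), 0 to 4 (VC on CD), 2 to 9 (interaction), 1 to 1, 1 to 3, 2 to 10 and 0 to 1 (time on CD, CD+VC, WD and WD+VC) and 0 to 5 (diet by time), and 0 to 0 elsewhere. With the replicate number as a block the counts were 13 for diet in air, 5 for the interaction, 4 for time on CD+VC, 10 for time on WD and 4 for diet by time. The numbers do not pair the samples: over 33 pairs the correlation of same-numbered deviations was -0.31 to 0.24. Low counts limit genes under 26.3 CPM, and 12 of the members were not tested.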
